A study of Mus musculus with 12 samples.

Results

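Tgfb1, Tgfb2 and Tgfb3 encode the mammalian transforming growth factors beta, and the balance among their transcripts was examined in a mouse pancreatic cancer line grown in mice and in culture. The 3 genes were taken by name from a panel of 750 measured genes, and all 3 were present. Cells of mT3-2D, a pancreatic cancer line from KPC mice, were grown under the skin as 5 tumours of immunodeficient SCID hosts and 5 tumours of immunocompetent wild-type (WT) hosts, and the line itself was measured in 2 samples. Some tumours of a host share a title number, and whether such tumours came from 1 animal is not stated. All tumour samples were whole tumours, so their RNA mixes cancer cells with host cells, and the cancer cells come from 1 line in every group. The labels name no host strain beyond SCID and WT, no sex, age or time of growth, and no separate cultures of the line. All p-values rest on the spread among the samples at hand, part of which may be technical. Transcripts were counted in total RNA by NanoString nCounter with its mouse immune oncology panel, in which each gene has its own colour-coded probe and no amplification step is used.

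Transforming growth factors beta are secreted as latent complexes, in which the mature dimer stays bound to its own propeptide until integrins, thrombospondin or proteases release it. The active ligand binds the receptor encoded by Tgfbr2, which recruits and phosphorylates the one encoded by Tgfbr1, and the signal passes through Smad2 and Smad3 with Smad4 to the nucleus. In pancreatic tumours these factors are known for driving collagen production by fibroblasts, for restraining T cells and for slowing the growth of epithelial cells until the pathway is lost. Tgfb1 is the member most studied in immune cells and platelets, whereas Tgfb2 and Tgfb3 are best known from development and wound repair.

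The 3 genes lie on different chromosomes of the RefSeq annotation of GRCm38.p6. Tgfb1 spans chr7:25687002-25705077, Tgfb2 spans chr1:186622787-186709697 and Tgfb3 spans chr12:86056743-86079041, all as protein-coding genes. Promoter windows are shown for Tgfb1 and Tgfb2, the 2 members matched in the RefSeq promoter table, so that their sequence composition can be compared. The 250 bases before the RefSeq start, on the gene's own strand, are chr7:25686752-25687001 on the plus strand for Tgfb1 and chr1:186705990-186706239 on the minus strand for Tgfb2. The Tgfb2 window lies inside the annotated extent of its gene. Capitals mark matches to GGGCGG (the core of the GC box), TATAAA (the TATA box) and CACGTG (an E-box), searched on both strands, so that GGGCGG on the other strand reads CCGCCC.
Tgfb1 promoter: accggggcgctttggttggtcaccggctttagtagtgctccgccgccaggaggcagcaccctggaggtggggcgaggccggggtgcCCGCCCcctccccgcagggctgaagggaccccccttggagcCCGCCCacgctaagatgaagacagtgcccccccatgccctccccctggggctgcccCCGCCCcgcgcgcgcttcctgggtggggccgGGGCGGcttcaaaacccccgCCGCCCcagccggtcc
Tgfb2 promoter: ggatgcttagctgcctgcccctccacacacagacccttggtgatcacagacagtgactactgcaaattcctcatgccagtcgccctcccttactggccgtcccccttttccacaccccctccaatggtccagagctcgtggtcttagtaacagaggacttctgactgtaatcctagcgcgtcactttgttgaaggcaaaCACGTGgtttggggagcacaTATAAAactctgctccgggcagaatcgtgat
The Tgfb1 window was 75.2% G and C, higher than 96.1% of the 32851 windows of the same length, whose median was 52.4%. It held 5 GC boxes, at positions -164, -123, -67, -36 and -16 from the start, and no TATAAA or CACGTG. The Tgfb2 window was 53.6% G and C and held 1 TATAAA at -31 and 1 CACGTG at -51, with no GGGCGG. Over all windows 32.7% held GGGCGG, 12.4% held TATAAA and 6.02% held CACGTG. The AP-1 motif TGANTCA, present in 6.75% of windows, was in neither. These matches describe the letters in the windows and do not show that a factor bound there.

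Depth was similar across the series. Between 368925 and 558445 probe counts were recovered per sample, and 421 to 472 genes in SCID tumours, 487 to 555 in WT tumours and 299 to 308 in the line lay above a background level of 37.4 counts, set from lymphocyte genes that the line should lack. WT tumours 2 and 3 were nearly identical, with a chi-square per degree of freedom of 1.2 where the 19 other tumour pairs within a host had 17.1 to 84.5. They were averaged and counted as 1 sample, which leaves 4 WT tumours. The cell line pair gave 1.64, so the line's spread may be technical. WT tumour 2 and SCID tumour 5 carry a title number of another series than the other tumours. T cell markers separated the hosts as labelled. Their summed level was 93.1 to 136 normalized counts in SCID tumours, with 5 of 6 markers at background throughout. It was 225 to 426 in WT tumours, where Cd4 and Cd8a were at background throughout. Cd3d, the marker above background in SCID tumours, was above it in the line too. The 4 B cell markers were at background in every sample.

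Tgfb1 transcripts were several times more abundant in the tumours of both hosts than in the line. Normalized probe counts of Tgfb1 in SCID tumours 1 to 5 were 1778, 2058, 1903, 2292 and 3341. In WT tumours 1 to 5 they were 3073, 2045, 1979, 1717 and 2064, and both cell line samples read 343. SCID tumour 5 and WT tumour 1 stood highest, the 2 hosts overlapped over most of their range, and the lowest tumour was far above the line. On the log2 scale Tgfb1 averaged 11.11 ± 0.36 in SCID tumours (SD, n = 5), 11.08 ± 0.36 in WT tumours (SD, n = 4) and 8.42 in the line (n = 2).

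Tgfb2, the member with the dimmest probe, gave 87.5, 125, 104, 111 and 164 normalized counts in SCID tumours 1 to 5. WT tumours 1 to 5 gave 117, 96.1, 91.2, 131 and 119.9, and the line gave 32.3 and 47.9. SCID tumour 5 was again the highest of its host, the hosts overlapped, and every tumour was above both line samples. The line values rested on 45 and 69 recovered counts, with exact 95% Poisson intervals of 32.8 to 60.2 and 53.7 to 87.3 that cover counting error only. The lower of these intervals includes the background level, so a part of the Tgfb2 signal in the line may be background. The log2 means were 6.85 ± 0.34 in SCID tumours (SD, n = 5), 6.84 ± 0.21 in WT tumours (SD, n = 4) and 5.30 in the line (n = 2).

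Tgfb3 gave 413, 288, 333, 388 and 764 normalized counts in SCID tumours 1 to 5. It gave 622, 367, 364, 506 and 502 in WT tumours 1 to 5, and 142 and 136 in the line. SCID tumour 5 was the highest sample and SCID tumour 2 the lowest tumour, so the SCID values enclosed the WT values, and no tumour reached down to the line. The log2 means were 8.68 ± 0.54 in SCID tumours (SD, n = 5), 8.94 ± 0.32 in WT tumours (SD, n = 4) and 7.12 in the line (n = 2). All 3 genes were above background in all 12 samples.

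**Figure D1:**
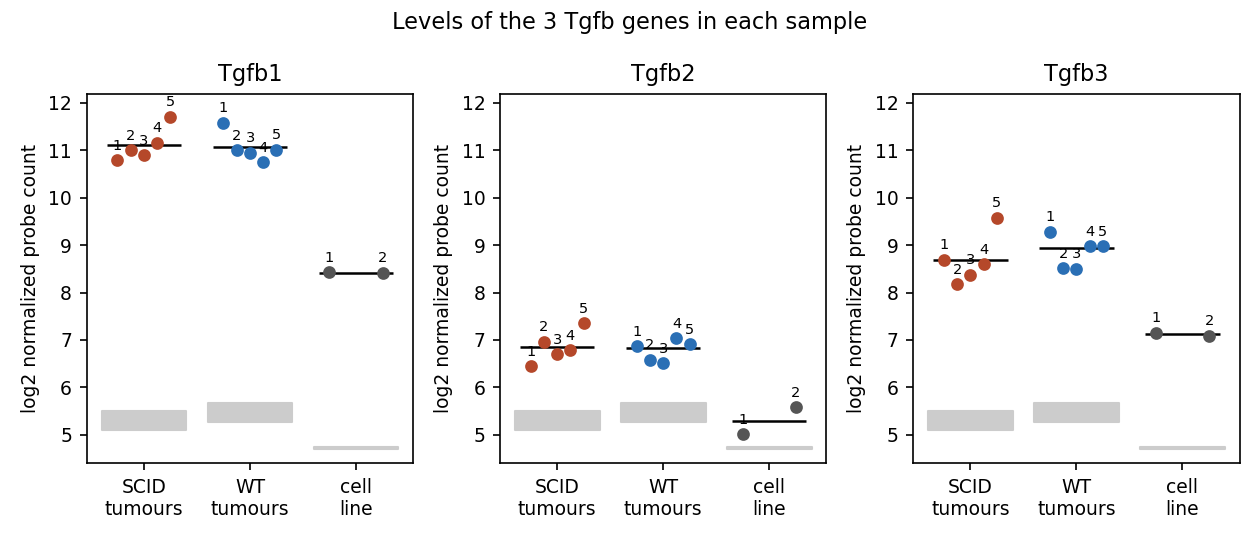
Log2 normalized probe counts of Tgfb1, Tgfb2 and Tgfb3 (vertical axes) in SCID tumours, WT tumours and the cell line, with the replicate number above each point, group means as black lines (WT tumours 2 and 3 averaged first) and grey bands for the range of the background level. The tumours of the 2 hosts overlap for each gene and all lie above the 2 line samples, whose Tgfb2 values sit closest to background. On this panel 51.6% of all genes were called higher than the line in SCID tumours and 67.1% in WT tumours.

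Tumours of the 2 hosts were set against each other to ask whether the immune state of the host moves these genes. None of the 3 passed the test. SCID minus WT was 0.03 on the log2 scale for Tgfb1 (SE 0.23, limma adjusted p = 0.953) with a 95% interval of the fold of 0.713 to 1.47. For Tgfb2 the difference was 0.01 (SE 0.20, limma adjusted p = 0.98), with an interval of 0.738 to 1.38. For Tgfb3 it was -0.25 (SE 0.28, limma adjusted p = 0.582), with an interval of 0.543 to 1.30. On the deposited scale with all tumours, halving or doubling between hosts lay outside these intervals. Smaller differences could not be resolved with 5 and 4 tumours. For Tgfb3 the lower bound of 0.543 was close to halving and depends on the samples kept. Without the averaged WT tumours 2 and 3 its difference was -0.40 (SE 0.30), so halving of Tgfb3 is not firmly excluded. By limma 0 of 3 members passed at an adjusted or an unadjusted p of 0.05, and 0 by edgeR, where 15.9% of the 750 genes passed with limma in either direction, 0.133% higher and 15.7% lower in SCID tumours. The scale matters for this background: the median change over all genes was -0.33, and relative to that median the members stood at 0.36, 0.34 and 0.07. With each sample scaled to its median gene the split of calls was 49 higher and 37 lower in place of 1 and 118, and with TMM factors it was 8 and 56. With median scaling Tgfb1 was at 0.64 (SE 0.23, limma adjusted p = 0.0764), Tgfb2 at 0.62 (SE 0.19, limma adjusted p = 0.0551) and Tgfb3 at 0.35 (limma adjusted p = 0.339), so on that scale a doubling of Tgfb1 or Tgfb2 in SCID tumours was not excluded. With TMM they were at 0.35, 0.33 and 0.06, and no member passed under either scaling.

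Against the line, all 3 genes rose in tumours of both hosts on the deposited scale, although Tgfb2 and Tgfb3 lay below the line once samples were scaled to their median gene. In SCID tumours Tgfb1 was 6.45-fold above the line (log2 2.69, SE 0.28, limma adjusted p = 1.08e-05), with a 95% interval of 4.23 to 9.84. Tgfb2 was 2.94-fold above it (log2 1.56, SE 0.26, limma adjusted p = 3.95e-04) and Tgfb3 2.96-fold (log2 1.56, SE 0.34, limma adjusted p = 0.00227). In WT tumours Tgfb1 was 6.30-fold above the line (log2 2.66, SE 0.29, limma adjusted p = 9.61e-06). Tgfb2 was 2.91-fold above it (log2 1.54, SE 0.27, limma adjusted p = 3.76e-04) and Tgfb3 3.53-fold (log2 1.82, SE 0.35, limma adjusted p = 7.17e-04). Both comparisons use the same 2 line samples. The members' 3 of 3 has to be read against a background in which 54.4% of genes passed in SCID tumours, 51.6% higher and 2.8% lower, and 69.7% passed in WT tumours, 67.1% higher and 2.67% lower, so a rise over the line was common on this panel.

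The size of the rise depended on how samples were put on one scale, on a panel where most genes were at background in the line. The median log2 change over all genes was 0.81 in SCID tumours and 1.21 in WT tumours, whereas over 60 widely expressed genes it was 0.19 and 0.29. Relative to the all-gene median, Tgfb1 stood 1.88 higher in SCID tumours and 1.45 higher in WT tumours. Tgfb2 stood 0.75 and 0.33 higher and Tgfb3 0.76 and 0.61 higher in the same order of hosts. Tgfb1 ranked above 85.2% of genes in SCID tumours and above 76.5% in WT tumours. With scaling on the widely expressed genes the changes in SCID tumours were 2.63, 1.49 and 1.5 for Tgfb1, Tgfb2 and Tgfb3, close to the deposited scale.

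Scaling each sample to its median over all genes gave a different picture for Tgfb2 and Tgfb3. Tgfb1 was then 0.69 above the line in SCID tumours (limma adjusted p = 0.031) and 0.05 in WT tumours (limma adjusted p = 0.864). Tgfb2 was at -0.45 in SCID tumours (limma adjusted p = 0.101) and fell by 1.06 in WT tumours (limma adjusted p = 0.00143). Tgfb3 was at -0.44 in SCID tumours (limma adjusted p = 0.196) and fell by 0.79 in WT tumours (limma adjusted p = 0.0337). TMM factors gave values in between, with Tgfb1 at 1.97 and 1.62, Tgfb2 at 0.84 and 0.51, and Tgfb3 at 0.85 and 0.78 in SCID and WT tumours. The split of calls moved as well. In SCID tumours 387 genes were called higher and 21 lower on the deposited scale, 101 and 481 with the median, and 212 and 119 with TMM. In WT tumours the splits were 503 and 20, then 106 and 483, then 249 and 148. A factor per sample moves all 3 genes alike, so the order of their changes is the same under every such scaling.

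**Figure D2:**
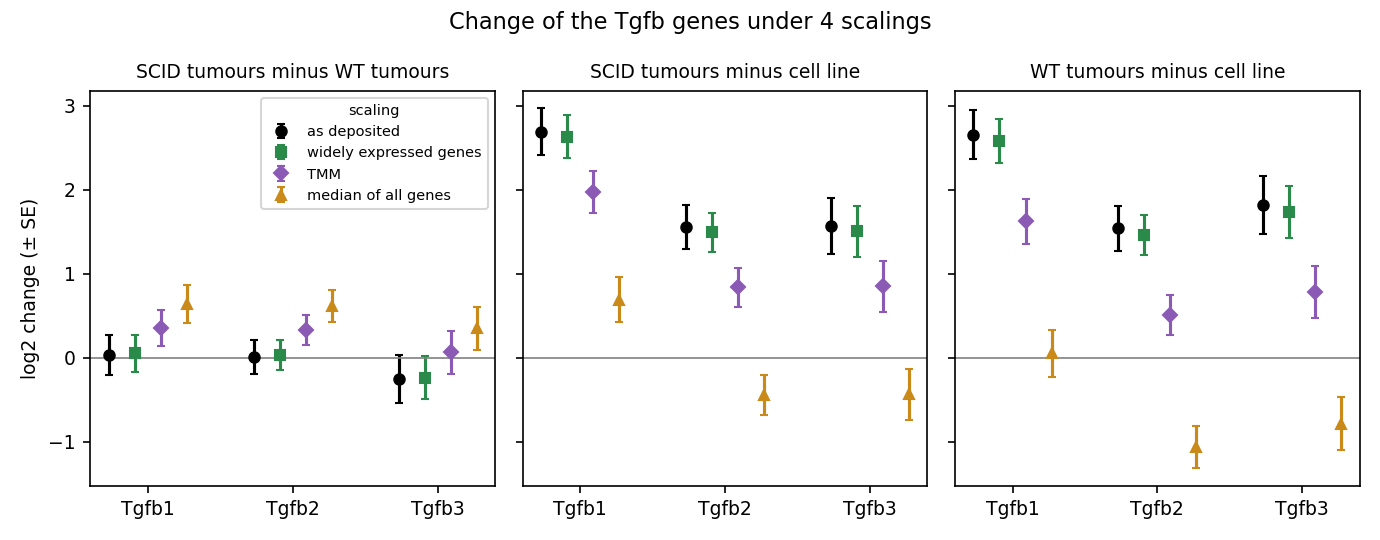
Log2 change of each Tgfb gene (vertical axis, with SE bars from limma) for SCID minus WT tumours, SCID tumours minus line and WT tumours minus line, under the deposited scale and 3 others. In the host comparison no value passes the test, and in both comparisons with the line Tgfb2 and Tgfb3 go below 0 with the median of all genes; the gaps between genes are the same under every scaling by construction.

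Differences between genes within a sample do not depend on that scale, and they show the isoform balance directly. Probe efficiencies differ, so a difference between 2 probes carries no meaning for transcript levels by itself. Its change between groups does where both probes stand well above background, which Tgfb2 in the line does not. Tgfb2 minus Tgfb1 was -4.35, -4.04, -4.19, -4.37 and -4.35 on the log2 scale in SCID tumours 1 to 5. It was -4.72, -4.41, -4.44, -3.71 and -4.10 in WT tumours 1 to 5, and -3.41 and -2.84 in the line. Every tumour lay below both line samples, and the SCID tumours lay within the wider range of the WT tumours.

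Tgfb3 minus Tgfb1 was -2.11, -2.84, -2.52, -2.56 and -2.13 in SCID tumours 1 to 5. It was -2.30, -2.48, -2.44, -1.76 and -2.04 in WT tumours 1 to 5, and -1.27 and -1.33 in the line. Again each tumour was below the line, here with WT tumour 4 closest to it. Tgfb3 minus Tgfb2 was 2.24, 1.21, 1.68, 1.81 and 2.22 in SCID tumours, 2.42, 1.93, 2.00, 1.94 and 2.07 in WT tumours, and 2.14 and 1.51 in the line, with all 3 groups overlapping.

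Before any background was subtracted, both differences with Tgfb1 stood lower in the tumours, and Tgfb3 minus Tgfb2 lay close to the mean of the line. Relative to the line, Tgfb2 minus Tgfb1 was lower by 1.13 in SCID tumours, a 2.20-fold shift of the ratio, and by 1.11 in WT tumours, a 2.16-fold shift. Tgfb3 minus Tgfb1 was lower by 1.13 in SCID tumours and by 0.84 in WT tumours. Each of these had the smallest p that the exact two-sided permutation test allows, 0.0476 for 5 against 2 and 0.0667 for 4 against 2. The adjusted p was 0.15 over 9 balance tests, so none passed. Tgfb2 in the line lay near background, which can raise Tgfb2 minus Tgfb1 there. With the median background of 15.5 counts subtracted, that difference from the line was -0.90 in SCID tumours and -0.90 in WT tumours. By the same exact test the adjusted p was then 0.2 and 0.4. The part of background in the shift was not tested beyond this subtraction. Tgfb3 minus Tgfb2 differed from the line by 0.01 in SCID tumours (exact permutation p = 1) and by 0.28 in WT tumours (exact permutation p = 0.467).

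Taking the 9 tumours of both hosts together, a comparison added after the data were seen, lets the test go lower. Tgfb2 minus Tgfb1 averaged -4.25 ± 0.28 in tumours (SD, n = 9) and -3.13 in the line (n = 2), a difference of -1.13. Its exact permutation p was 0.0182, the smallest possible here, and 0.0273 after adjustment over 3 tests. That adjustment leaves out the 9 balance tests above, which use the same samples and did not pass. The test also counts the 2 line samples as independent, although their spread may be technical. It counts the 9 tumours as independent too, although some share a title number and may come from 1 animal. No balance test was grouped by title number. Tgfb3 minus Tgfb1 averaged -2.30 ± 0.33 in tumours (SD, n = 9) and -1.30 in the line (n = 2), a difference of -0.998 with the same exact p and adjusted p. Tgfb3 minus Tgfb2 differed by 0.13 (exact permutation p = 0.709). Subtracting the median background of 15.5 counts left differences of -0.90 and -0.97 for the pairs with Tgfb1, with an adjusted p of 0.0545 by the same exact test, which does not pass. With either line sample left out the differences ranged from -1.41 to -0.84 for Tgfb2 minus Tgfb1 and from -1.03 to -0.97 for Tgfb3 minus Tgfb1, and with 9 against 1 the exact test cannot pass a threshold of 0.05.

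Between hosts no balance passed the test. SCID minus WT was -0.02 for Tgfb2 minus Tgfb1 (exact permutation p = 0.913), -0.29 for Tgfb3 minus Tgfb1 (exact permutation p = 0.214) and -0.27 for Tgfb3 minus Tgfb2 (exact permutation p = 0.333). As shares of the counts on the 3 probes, Tgfb1 took 80.6 ± 2.35% in SCID tumours (SD, n = 5), 78.0 ± 3.90% in WT tumours (SD, n = 4) and 65.7% in the line (n = 2). Tgfb3 took 15.2 ± 2.78%, 17.8 ± 2.93% and 26.6%, and Tgfb2 4.23 ± 0.52%, 4.22 ± 1.07% and 7.66%, in the same groups. These are shares of probe counts and not of molecules.

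**Figure D3:**
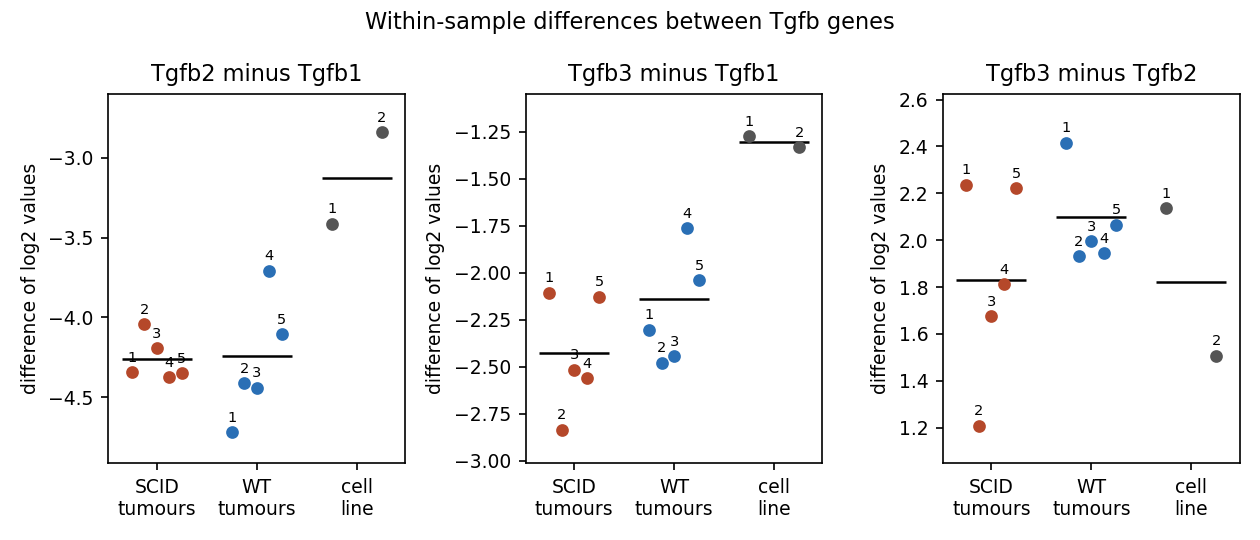
Within-sample differences of log2 values for the 3 pairs of Tgfb genes (vertical axes, each on its own range), in SCID tumours, WT tumours and the cell line, with replicate numbers and group means as black lines. Both pairs that include Tgfb1 lie lower in all tumours than in the line, and the Tgfb3 minus Tgfb2 pair overlaps between all 3 groups.

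A list of the pathway beyond the 3 ligands held 68 gene names, among which Ctgf and Ccn2 name the same gene. Of these, 23 were on the panel, and none of the list's 6 other family ligands was among them. In SCID tumours 14 of the 23 were called higher than in the line, where 51.6% of all genes were, and 9 in neither direction. There 0 were lower (0 also at an unadjusted p of 0.05), where 2.8% of all genes were. By edgeR 5 were lower, beside 124 of the 750 genes. In WT tumours 16 were higher, where 67.1% of all genes were, 1 was lower, where 2.67% were, and 6 in neither direction. Neither share of higher calls stood far from the panel. The list's median log2 change was 0.81 in SCID tumours, the same as the median of all genes, and 1.46 in WT tumours against 1.21 for all genes. Between hosts 0 were higher (0 also at an unadjusted p of 0.05 and by edgeR), 3 were lower in SCID tumours, where 15.7% of all genes were, and 20 in neither direction, with a median of -0.15. With median scaling this split was 3 higher and 0 lower, beside 49 and 37 of the 750 genes. The calls against the line depend on scaling, with 5 higher and 13 lower in either host once samples were scaled to their median gene. Of all 750 genes, 101 were then higher and 481 lower in SCID tumours, and 106 and 483 in WT tumours.

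Among the receptors, Tgfbr1, the signalling kinase of the pair, rose by 0.77 in SCID tumours (SE 0.21, limma adjusted p = 0.00873) and by 0.65 in WT tumours (SE 0.21, limma adjusted p = 0.0184). Tgfbr2, which binds the ligand, was 0.40 above the line in SCID tumours (limma adjusted p = 0.160) and 0.41 in WT tumours (limma adjusted p = 0.146), without passing. Endoglin (Eng), a co-receptor of endothelial cells, was at background in the line and at least 6.29-fold higher in SCID tumours and at least 6.97-fold higher in WT tumours, where "at least" sets the tumour mean against the line's background level. Endothelial markers, of which 0 of 5 were above background in the line, summed to 452 to 991 normalized counts in SCID tumours, 688 to 966 in WT tumours and 45.8 to 58.8 in the line, and their part in the Eng values was not tested.

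On the deposited scale the signal transducers changed little in size, from -0.52 to 0.67, although Smad3 was called in both hosts and Smad2 in WT tumours. Median scaling lowers all genes alike against the line, so these values hold for the deposited scale only. Smad3, a carrier of the signal to the nucleus, rose by 0.65 in SCID tumours (SE 0.18, limma adjusted p = 0.0114) and by 0.67 in WT tumours (SE 0.19, limma adjusted p = 0.00923). Smad2, its partner in the same step, was at -0.37 in SCID tumours (limma adjusted p = 0.107) and fell by 0.52 in WT tumours (SE 0.19, limma adjusted p = 0.0268). The shared mediator Smad4 was 0.28 above the line in SCID tumours (limma adjusted p = 0.141) and 0.32 in WT tumours (limma adjusted p = 0.0931). Map3k7, the kinase TAK1 of the Smad-independent branch, was at 0.12 in SCID tumours and -0.06 in WT tumours, and its partner Tab1 at 0.09 and 0.02, and neither passed. The Smad3 and Tgfbr1 rises were smaller than the median change of all genes.

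Genes that release or activate the latent ligand included some of the larger changes. Thbs1 encodes thrombospondin-1, a matrix protein that can activate latent ligand. It was 14.3-fold above the line in SCID tumours (log2 3.84, SE 0.19, limma adjusted p = 3.75e-08) and 17.3-fold in WT tumours (log2 4.12, SE 0.19, limma adjusted p = 1.92e-08). Mmp9, a secreted protease that can do the same, was at background in the line and at least 4.84-fold higher in SCID tumours and at least 8.73-fold higher in WT tumours. In all, 4 of the 5 measured genes of this group were called higher in SCID tumours, beside 51.6% of all genes, and 5 of 5 in WT tumours, beside 67.1%.

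Known target genes were led by the fibrillar collagens. Col1a1 was at least 423-fold higher in SCID tumours and at least 478-fold higher in WT tumours than the line's background level, and Col3a1 at least 386-fold and at least 330-fold higher. Of the 10 measured targets, 7 were called higher in SCID tumours (51.6% of all genes) and 8 in WT tumours (67.1% of all genes), among them Snai1 in SCID tumours and Foxp3 in WT tumours, which were at background in both groups compared and have no fold. The 2 targets not called in either host were Vim, the mesenchymal filament, and Vegfa, the angiogenic factor, and these along with Snai1 were singled out after their values were seen. Both collagens are also fibroblast markers, and neither was above background in the cancer line.

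Between hosts the 3 list members called lower in SCID tumours were Itgb3, Plau and Foxp3. Itgb3 is an integrin chain that binds latent ligand, named here because the count is small, and it fell by 0.73 in SCID tumours (SE 0.20, limma adjusted p = 0.0321). Its normalized counts were 81.0 to 129.8 in SCID tumours and 134 to 220.2 in WT tumours, which do not overlap. The share of all genes whose ranges part in this way was not computed. Plau, the urokinase that generates plasmin, fell by 0.82 (SE 0.23, limma adjusted p = 0.038), with 214 to 416 counts in SCID tumours and 498 to 764 in WT tumours. Foxp3, the regulator of regulatory T cells, was at background in every sample, so its call carries no fold. Mmp9 at -0.85 (limma adjusted p = 0.199) and Itgae, an integrin of tissue-resident T cells, at -0.87 (limma adjusted p = 0.148) had larger values than Plau and Itgb3 and did not pass. Pan-leukocyte markers summed to 264 to 523 counts in SCID tumours and 568.5 to 910.3 in WT tumours, and their part in these differences was not tested. In whole tumours fewer cells of a type and less RNA per cell cannot be told apart. These 3 calls depended on scaling and samples. In place of 3, 0 list members were called lower with median scaling, 1 with TMM and 1 with edgeR. The count was also 1 without WT tumour 1, without WT tumour 5, without the averaged WT tumours 2 and 3, without SCID tumour 2 and without SCID tumour 3.

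Fibroblast marker genes were set beside the Tgfb genes because their levels differed widely among the tumours. The summed normalized count of Col1a1, Col3a1, Pdgfrb, Thy1 and Fap was 15158, 29615, 19025, 16209 and 41417 in SCID tumours 1 to 5. It was 31697, 17138, 17156, 14845 and 31068 in WT tumours 1 to 5, and 46.6 and 57.6 in the line, where 0 of the 5 genes was above background. Col1a1 gave 8031 to 16054 normalized counts in SCID tumours and 8378 to 16955 in WT tumours. Col3a1 gave 6445 to 24026 and 5329 to 13613 in the same groups. Both collagens, also on the target list above, carry most of the sum, so its relations to the Tgfb genes are mainly relations to these collagens. SCID tumour 5 and WT tumour 1, the samples with the most Tgfb1 and Tgfb3, also had the highest marker sum of their host. Over the 9 tumours the log2 sum and Tgfb1 gave a Pearson r of 0.77 (permutation p = 0.0119, adjusted p = 0.0716 over 6 relations) and a Spearman rho of 0.82 (permutation p = 0.0108, adjusted p = 0.0646). Without SCID tumour 5 and WT tumour 1 the r was 0.40 over the other 7.

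The same relations were computed for Tgfb2 and Tgfb3, and their difference from that of Tgfb1 was not tested. For Tgfb2 the r was 0.68 (permutation p = 0.043, adjusted p = 0.0859) and rho 0.42 (permutation p = 0.270, adjusted p = 0.403), with an r of 0.44 without the same 2 tumours. For Tgfb3 the r was 0.51 (permutation p = 0.165, adjusted p = 0.165) and rho 0.32 (permutation p = 0.410, adjusted p = 0.410), with an r of -0.21 without them. Among the Tgfb genes, Tgfb1 and Tgfb3 gave an r of 0.69 (permutation p = 0.0406, adjusted p = 0.0859) and rho of 0.40 (permutation p = 0.291, adjusted p = 0.403), with an r of -0.33 without those tumours. Tgfb1 and Tgfb2 gave an r of 0.58 (permutation p = 0.11, adjusted p = 0.131) and rho of 0.37 (permutation p = 0.336, adjusted p = 0.403), with an r of 0.0855 without them. Tgfb2 and Tgfb3 gave an r of 0.60 (permutation p = 0.0862, adjusted p = 0.129) and rho of 0.47 (permutation p = 0.213, adjusted p = 0.403), with an r of 0.33 without SCID tumours 1 and 5. None of the 6 relations passed after adjustment, and all share each sample's scaling factor.

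**Figure D4:**
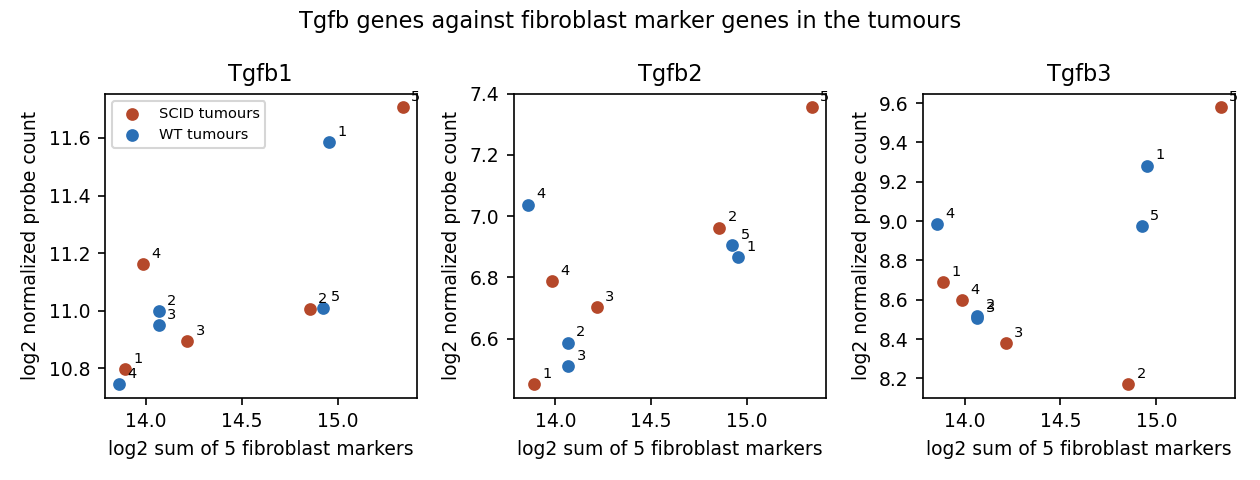
Log2 normalized count of each Tgfb gene (vertical axes) against the log2 summed count of 5 fibroblast markers (horizontal axes) in the SCID tumours and WT tumours, with replicate numbers. SCID tumour 5 lies at the upper right in all 3 panels and WT tumour 1 does so for Tgfb1 and Tgfb3, while the other tumours show no common slope for Tgfb3.

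Markers of other cell types were summed in the same way. Macrophage markers summed to 1406 to 1909 normalized counts in SCID tumours, 1688 to 2548 in WT tumours and 670 to 700.0 in the line, where 4 of the 6, among them Csf1r and Emr1, were at background. Epithelial markers summed to 10077 to 16848 in SCID tumours, 7445 to 19735 in WT tumours and 11705 to 11733 in the line. The 2 measured platelet markers summed to 43.3 to 81.4 in SCID tumours, 52.3 to 89.3 in WT tumours and 23.7 to 41.0 in the line. Itga2b was at background in every sample, and Ppbp, a platelet chemokine, was above it in at least 1 tumour of each host and at background in the line. The part of these cell types in the Tgfb levels was not tested.

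The genes whose levels ran most like each member over the 9 tumours were named by Pearson r of log2 values among the 389 other genes above background in all 9. For Tgfb1 these were Dusp4, a phosphatase of MAP kinases (r = 0.93), Dll4, a Notch ligand (r = 0.92), and Axl, a receptor tyrosine kinase (r = 0.88). For Tgfb2 they were Map2k4, a stress kinase (r = 0.85), Emr1, a surface marker of macrophages (r = 0.83), and the Fc receptor Fcgr3 (r = 0.83). For Tgfb3 they were Myd88, an adaptor of Toll-like receptors, the Fc receptor Fcgr1 and Fadd, an adaptor of death receptors, each with an r of 0.90. The other Tgfb genes ranked much lower, with Tgfb3 at place 31 and Tgfb2 at place 64 for Tgfb1. With 9 tumours that share their scaling, these are descriptions of likeness and carry no test.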

How the data were processed

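RNA was extracted and counted on the nCounter system, per the labels' protocols. The authors deposited normalized log2 values of 750 genes and the same values as linear signal for 749, equal within 5.4e-09. In each sample 100% of the deposited signal values were whole multiples of a step of 0.694 to 1.35, within 0.02 counts, and dividing by it recovered probe counts. How the authors normalized, and with which software, is not given in the sources used here. Both the Tgfb genes and the gene lists were chosen with earlier results of these data known. Named pathway genes were the receptors, the transducers and, for activation and targets, the 2 largest changes per comparison, with exceptions marked.

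Log2 values were fitted with limma 3.58.1 (R 4.3.3; lmFit and eBayes, two-sided, no covariate), SCID and WT tumours alone for the host comparison and all 3 groups in 1 fit against the line, with Benjamini-Hochberg adjustment over 750 genes and a threshold of 0.05. The 23 pathway genes were counted and not tested as a list. The background level is the 95th percentile of counts of 36 T and B cell genes in the line, set after the data were seen; where a dimmer group lay at or below it, the fold is a bound. Balance tests enumerate all arrangements of samples. edgeR 4.0.16 was run on the recovered counts as an alternative, with WT tumours 2 and 3 summed. Alternatives covered scaling, low values, samples, variance trend, replicate and title blocks. The scripts were tested on simulated data. Tumour numbers did not pair the hosts: deviations of same-numbered tumours correlated between -0.41 and 0.24. Depth was 368925 to 558445 counts per sample. Promoter sequences came from RefSeq tables of GRCm38.p6, where 2 of the 3 genes matched.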

Additional observations from a re-analysis of the deposited data

Results flagged for a closer look

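Among the Tgfb genes and the 23 pathway genes, 58 groups of 4 or 5 tumours or of ligand differences were searched for a sample far from the others, and chance alone marks about 1 in 20 groups. Plau stood low in SCID tumour 1, at 7.74 on the log2 scale against 8.43 to 8.70 in the other SCID tumours. Vegfa stood high in SCID tumour 4, at 10.86 against 10.07 to 10.24 in the other SCID tumours. Itgae stood high in WT tumour 5, at 6.83 against 5.91 to 5.99 in the other WT tumours. None of the Tgfb genes had such a sample.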

How the results depend on the processing

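Most changes in these results came from scaling, and the cause was not tested. For SCID against WT tumours no Tgfb gene passed under any alternative that was run. Tgfb1 turned to -0.11 and Tgfb2 to -0.10 with the larger title series alone, and Tgfb2 to -0.10 without WT tumour 1 and SCID tumour 5 together. Tgfb3 turned to 0.35 with median scaling, 0.0641 with TMM and 0.0902 with edgeR. Tgfb3 was at -0.48 with the larger title series alone. Leaving out 1 sample gave -0.11 to 0.20 for Tgfb1, -0.11 to 0.11 for Tgfb2 and -0.48 to -0.13 for Tgfb3. The most negative Tgfb3 value came without SCID tumour 5. Leaving out 1 sample also gave 1 to 4 pathway genes lower. With a replicate block the Tgfb1, Tgfb2 and Tgfb3 changes were 0.05, 0.07 and -0.17, with 4 pathway genes lower and 0 higher. Pathway genes higher and lower numbered 3 and 0 with median scaling, and 1 was lower with TMM and with edgeR.

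Against the line, SCID tumours had Tgfb2 at -0.45 and Tgfb3 at -0.44 with median scaling, where Tgfb1 remained called. Pathway genes higher and lower were 5 and 13 with median scaling and 9 and 4 with TMM, and 5 were lower with edgeR, 1 with values raised to background, 1 with scaling on widely expressed genes and 0 to 1 leaving out 1 sample. WT tumours had Tgfb1 at 0.0519, Tgfb2 at -1.06 and Tgfb3 at -0.79 with median scaling. Tgfb2 lost its call at 0.51 with TMM and 0.49 with edgeR, and Tgfb3 at 0.78 with TMM. Pathway genes higher and lower were 5 and 13 with median scaling and 10 and 6 with TMM and with edgeR, and 0 were lower with only WT tumours and line in the fit and 0 to 1 leaving out 1 sample.

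For the balance, SCID minus WT of Tgfb2 minus Tgfb1 turned to 0.0158 with WT tumours 2 and 3 apart and to 0.0045 with the larger title series, and ranged from -0.18 to 0.16 leaving out 1 sample. Against the line, Tgfb3 minus Tgfb2 in SCID tumours turned to -0.20 with background subtracted and -0.0886 without WT tumour 1 and SCID tumour 5, and ranged from -0.31 to 0.32 leaving out 1 sample, as it did from -0.0398 to 0.59 in WT tumours. For all tumours together the background-subtracted differences were -0.90, -0.97 and -0.0711, and leaving out 1 sample gave -1.41 to -0.84, -1.07 to -0.93 and -0.19 to 0.44. The exact test per gene of WT tumours against the line was not run, since 15 arrangements cannot go below 0.0667. Depth limits Tgfb2 in the line most, at 45 and 69 counts. With 1 line sample left out, the other is assumed to vary like the tumours.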
